A study of Mus musculus with 16 samples.

Results

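The miRNAs described here are those of the miR-206 and miR-1a genes that were deleted in the triple knockout (tKO). They were taken by name from the deposited miRNA tables: the 3p strands miR-206-3p and miR-1a-3p, and the 5p strands miR-206-5p, miR-1a-1-5p and miR-1a-2-5p. A copy name with no exact mature sequence of its own was merged into the mature name it matches without the copy number, where the tables hold one, so that miR-1a-1-3p and miR-1a-2-3p count as miR-1a-3p. These are 5 of the 2274 miRNA names in the 16 libraries, and each of the 5 has reads in at least 1 library. The cells are C2C12, a line of mouse myoblasts that can be switched from proliferation to fusion into myotubes, described by the growth protocol as PAX7 NEG. Control cells are labelled wild-type and come from 2 populations (lines 1 and 2), and tKO cells are 2 clones (lines 1 and 2) that lack miR-206 and both miR-1a genes, miR-1a-1 and miR-1a-2. Each line was sampled as proliferating myoblasts in growth medium with 20% fetal bovine serum (GM) and after 3 days in medium with 2% horse serum (DM3), with 2 numbered replicates of each. This gives 4 libraries in each of 4 groups (Control GM, tKO GM, Control DM3 and tKO DM3). A tKO line is a single clone, so the 4 libraries of a group stand for 2 lines, and the p-values below measure the spread between these libraries. In these bulk samples fewer differentiated cells and less RNA per cell cannot be told apart.

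A microRNA gene is transcribed as a hairpin that is cut into a pair of short strands, named 5p and 3p after the arm they come from. The strand loaded into an Argonaute protein recognises mRNAs mainly through its seed, bases 2 to 8 from the 5′ end. miR-206 and miR-1 belong to the myomiRs, miRNAs made mostly in muscle, and miR-206 is typical of skeletal muscle and rises as myoblasts differentiate. After cutting, the 3′ end can be trimmed, or extended by nucleotidyl transferases that add A or U bases not encoded in the hairpin.

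The miR-206 sequences below are shown because every result on levels, read forms and residual reads refers to them. RefSeq sequences on build GRCm38.p6 were matched for 3 of the 5 names. Capitals mark the seed in the mature strands, and the 3p strand within the hairpin. Mir206 lies on the plus strand of chromosome 1, with the hairpin at chr1:20679010-20679082, miR-206-5p at chr1:20679017-20679039 and miR-206-3p at chr1:20679055-20679076. miR-1a-1-5p lies on the plus strand at chr2:180389057-180389079, in the Mir1a-1 gene.
miR-206-3p: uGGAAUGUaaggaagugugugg
miR-206-5p: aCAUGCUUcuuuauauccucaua
miR-1a-1-5p: aCAUACUUcuuuauaugcccaua
Mir206 hairpin: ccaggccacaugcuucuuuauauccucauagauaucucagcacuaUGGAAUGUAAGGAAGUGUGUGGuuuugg
miR-206-3p and miR-1a-3p have 22 bases each, share the first 10 and so the whole seed, and differ at 4 positions, of which the first is position 11. Of the 935 names whose exact mature sequence is listed, these 2 alone carry this seed. miR-206-5p and miR-1a-1-5p differ at 3 positions and do not share a seed.

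Library depth, as reads listed under miRNAs, was 512340 to 6543570 for Control and 1237924 to 5992408 for tKO in GM. In DM3 it was 247964 to 2991983 for Control and 112792 to 4542927 for tKO. Replicate 2 was the deeper library of each line in every group. The shallowest library, tKO DM3 line 1 replicate 1, stood apart: 18.9% of its reads were under 18 nt, and miR-6240 and miR-6236, names chosen after their values were seen, took 35.4%. In the Control DM3 libraries these shares were at most 12.8% and 17.1%. Levels and tests of the tKO DM3 group are given with and without it where it moves them. In reads per 1000000 listed reads (CPM), the summed level of the 4 skeletal muscle markers other than miR-206-3p was 36.9 to 62.5 in Control GM and 44.4 to 60.7 in tKO GM. In DM3 it was 1573 to 3017 in Control and 147 to 1071 in tKO. Among markers of other cell types, miR-124-3p (neuron) was at 0 in all 16 libraries. miR-9-5p, the other neuronal marker, was at 98.1 to 156 CPM in Control GM and 52.4 to 106 CPM in Control DM3, against 4.04 to 12.8 CPM in tKO GM and 0 to 21.6 CPM in tKO DM3, so it moved with genotype, and its part in the results was not tested. The summed levels of the blood, epithelial and endothelial markers stayed at or below 25.3 CPM in all libraries, and miR-122-5p (liver) reached 75.5 CPM in tKO GM.

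In Control cells miR-206-3p was abundant in myotubes and moderate in myoblasts. In Control GM it was at 837 and 1343 CPM in line 1 (replicates 1 and 2) and at 977 and 1466 CPM in line 2, a mean of 1156 ± 297 CPM (SD, n = 4). In Control DM3 it was at 19951 and 27856 CPM in line 1 and at 32195 and 57442 CPM in line 2, a mean of 34361 ± 16201 CPM (SD, n = 4). The lowest DM3 library was far above the highest GM library, so the groups did not overlap. It ranked between 77 and 98 among all names in the GM libraries, and at 13, 8, 7 and 3 in the DM3 libraries, in the order just given. On the log2 scale the rise was 4.57 ± 0.78 (SE), with an adjusted p of 0.000257 by the quasi-likelihood test of edgeR, with Benjamini-Hochberg adjustment across all 807 tested names. The same test called 223 of 807 names between DM3 and GM in Control, a background of 27.6%, or 15.9% called higher. By library, 22.4% of the names were higher in Control DM3 without overlap.

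Both Control populations showed the rise in both replicates. On the log2(CPM + 1) scale the difference between DM3 and GM was 4.57 and 4.37 in line 1 (replicates 1 and 2) and 5.04 and 5.29 in line 2. Line 2 was above line 1 in each of the 4 matched pairs, by 1.17- and 1.09-fold in GM and by 1.61- and 2.06-fold in DM3, for replicates 1 and 2. Replicate 2 was also above replicate 1 in each of the 4 pairs of one line and medium. With 2 lines and 2 replicates these orders have no test here.

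**Figure D1:**
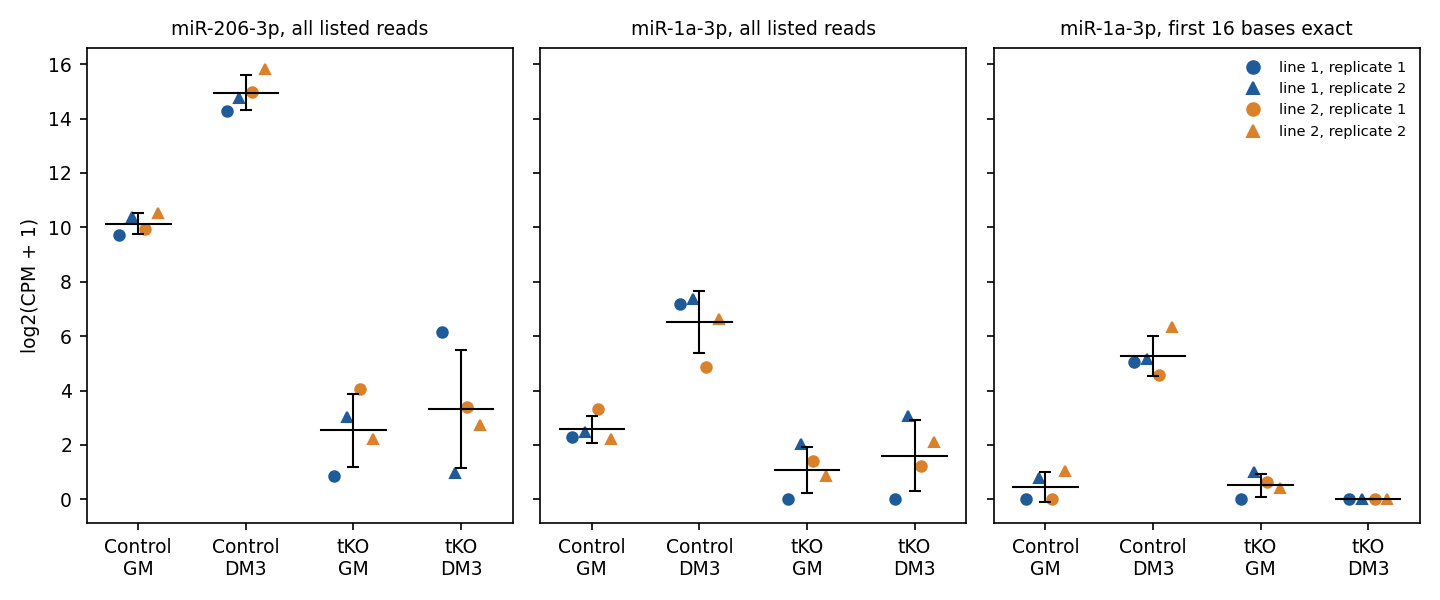
Level of miR-206-3p and miR-1a-3p in each of the 16 libraries, as log2(CPM + 1) on the vertical axis, by group on the horizontal axis. Colours mark the line and shapes the replicate number, and horizontal lines with bars give the mean and SD of 4 libraries. The right panel counts only miR-1a-3p reads whose first 16 bases are exact, and there every tKO DM3 library is at 0.

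miR-1a-3p, the other strand with this seed, was scarce: 2, 25, 17 and 24 reads in Control GM (line 1 replicates 1 and 2, then line 2), and 36, 153, 11.3 and 291 reads in Control DM3 in the same order. A few values in the tables are fractions. In CPM this is 5.27 ± 2.49 in Control GM and 109 ± 60.8 in Control DM3 (SD, n = 4), with no overlap between the groups. The rise on the log2 scale was 3.92 ± 0.60 (SE), with an adjusted p of 0.000114 in edgeR's quasi-likelihood test. With replicate 1 alone the rise was 2.81, with an adjusted p of 0.0604 in edgeR. The name passed the filter through its Control DM3 counts, the group where it is high, so these adjusted p-values are not taken as support.

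Many reads with the name miR-1a-3p do not spell it. The first 16 bases of miR-206-3p form the read shown next, which is shown because its name in the tables varies between libraries.
16-nt read: uggaauguaaggaagu
The tables list this 16-nt read under miR-1a-3p in 5 of the 8 Control libraries, and under miR-206-3p in the other 3. It made up 28 of 36 miR-1a-3p reads in Control DM3 line 1 replicate 1, 116 of 153 in line 1 replicate 2, and all 17 in Control GM line 2 replicate 1. In Control DM3 line 2 the same read is listed under miR-206-3p, with 89.7 reads in replicate 1 and 632 in replicate 2. Over the group, 36.4% of miR-1a-3p reads in Control DM3 held the first 15 bases of miR-206-3p, and 58.3% started with the first 15 of miR-1a-3p. Control DM3 line 2 replicate 2 supplied 291 of the 491 reads, and without it the shares were 73.5% and 24.5%, so their order rests on that library. In Control GM they were 45.6% and 16.2% of 68 reads.

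**Figure D2:**
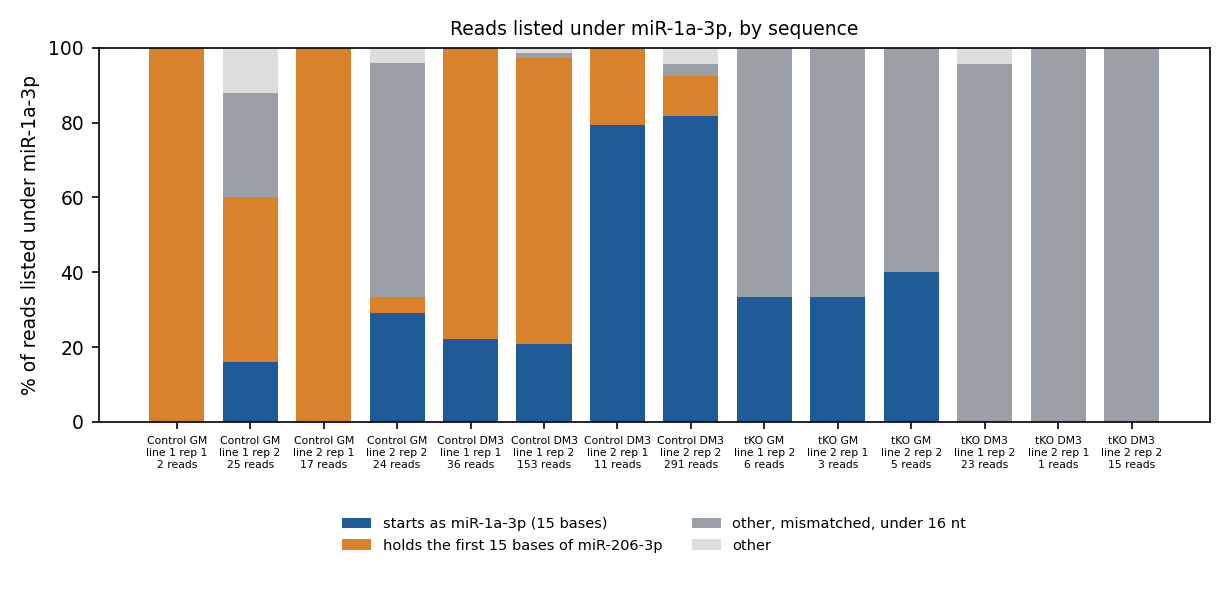
Share of miR-1a-3p reads in each library (vertical axis, percent) by what the sequence spells, with the number of reads under each bar. The 2 tKO libraries with no read under this name are left out. Control DM3 line 1 is mostly reads that hold the start of miR-206-3p, Control DM3 line 2 mostly reads that start as miR-1a-3p, and the tKO DM3 bars are short mismatched reads.

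Counted only by reads whose first 16 bases are those of miR-1a-3p, and which are not listed under miR-206-3p, Control DM3 held 8, 32, 9 and 236 reads, a mean of 42.1 ± 25.1 CPM (SD, n = 4). Control GM held 0, 4, 0 and 7 such reads, a mean of 0.449 ± 0.537 CPM. The rise from GM to DM3 in Control was then 5.58 on the log2 scale, with an adjusted p of 4.72e-05 in edgeR's quasi-likelihood test. By this count too the name passed the filter through Control DM3, the group where it is high. The adjusted p is thus not taken as support, and with so few GM reads the fitted size depends on the prior count. A further 3, 14, 9 and 103 reads in the Control DM3 libraries start with these 16 bases but are listed under miR-206-3p. They were 0.0542% to 0.0702% of the miR-206-3p reads of each Control DM3 library.

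miR-206-3p supplied nearly all reads with the shared seed. Its share of the summed reads of both 3p strands was 99.5 ± 0.293% in Control GM and 99.6 ± 0.311% in Control DM3 (SD, n = 4 each). DM3 was higher by 0.0974 percentage points, within the spread (p = 0.657, two-sided exact permutation test). The sign rests on which reads count as miR-1a-3p: with the first 16 bases exact the difference was -0.0975 and with reads without mismatch -0.0965 percentage points, each with an exact permutation p of 0.0571, and with reads of 18 to 25 nt -0.0407 (exact permutation p = 0.6).

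The other arm was close to the limit of detection. miR-206-5p had 0, 2, 0 and 8 reads in Control GM and 2, 2, 2 and 64 in Control DM3. On the log2(CPM + 1) scale its level was 0.40 ± 0.54 in Control GM and 2.98 ± 1.18 in Control DM3, with p = 0.02857 in a two-sided exact permutation test, the smallest that 4 against 4 libraries allow. The groups did not overlap. With reads without mismatch it was higher by 1.94 in DM3, and the exact permutation p was 0.143. Reads with its first 16 bases exact numbered 10 in GM and 65 in DM3, of which 61 came from line 2 replicate 2. The 5p arm made up 0.0276 ± 0.0393% of the Mir206 arm reads in Control GM and 0.0252 ± 0.0160% in Control DM3, with an exact permutation p of 0.943.

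Every read listed under miR-1a-1-5p or miR-1a-2-5p carried a mismatch. miR-1a-1-5p had 18 reads over the 16 libraries, 0 of them in Control DM3, and miR-1a-2-5p had 4, also 0 in Control DM3. None of the 4 comparisons passed the exact permutation test for either name, with p between 0.429 and 0.714. The 5p strands of the miR-1a genes were thus not detectable at this depth: 0 of 4564458 reads in Control DM3 allows up to 0.657 CPM, which covers counting error only.

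The tKO libraries kept few miR-206-3p reads. They held 1, 14, 28 and 22 reads in GM (line 1 replicates 1 and 2, then line 2) and 8, 3, 7 and 26 in DM3. In CPM this was 6.79 ± 6.38 in GM and 21.8 ± 33.0 in DM3 (SD, n = 4). Without tKO DM3 line 1 replicate 1 the DM3 level was 5.39 ± 4.28 CPM (SD, n = 3). All tKO libraries were below all Control libraries of the same medium, as was the case for 4.09% of names in GM and 2.23% in DM3. In GM the difference between tKO and Control was -7.52 ± 0.91 (log2, SE), with an adjusted p of 5.76e-05. That comparison called 9 of 807 names, a background of 1.12%, and 5 names lower, or 0.62%. In DM3 the difference was -11.85 ± 1.105, with an adjusted p of 1.46e-06, where 7 of 807 names were called, a background of 0.867%, and 4 lower, or 0.496%. Both are edgeR's quasi-likelihood test. Without tKO DM3 line 1 replicate 1 the DM3 difference was -12.68, with an adjusted p of 1.48e-07, while that comparison called 53 of 860 names. The size of the difference varied with the replicate: -6.68 with replicate number 1 alone and -8.50 with replicate number 2 alone in GM, and -9.65 and -13.60 in DM3, each called by edgeR.

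Part of the residual miR-206-3p reads spelled the mature form. Of 65 reads in tKO GM, 47 had the first 16 bases exact and 31 were the exact 22-nt sequence without added bases. Of 44 in tKO DM3, 27 had the first 16 bases exact and 10 were the exact sequence. By library, reads with the first 16 bases exact numbered 0, 7, 24 and 16 in tKO GM and 7, 1, 4 and 15 in tKO DM3. Set against the 2 Control libraries of the same medium and replicate number, they were 1.11% of the Control reads in tKO GM line 2 replicate 1 and at most 0.101% in the other tKO GM libraries. In tKO DM3 they were at most 0.0420% of the Control reads. Scaled for depth, as CPM against the CPM of those Control libraries, the shares were 0, 0.271, 1.49 and 0.203% in GM and 0.240, 0.000680, 0.0210 and 0.00701% in DM3, in the usual library order. The highest level, 62.1 CPM in tKO DM3 line 1 replicate 1, rests on 7 reads in the shallowest library. The source of these reads was not tested.

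miR-1a-3p in tKO cells was 0, 6, 3 and 5 reads in GM and 0, 23, 1 and 15 in DM3. In DM3 the difference from Control was -4.60 ± 0.65 (log2, SE), with an adjusted p of 0.000341 in edgeR's quasi-likelihood test. Without tKO DM3 line 1 replicate 1 it was -4.43 (adjusted p = 0.000308, edgeR). The name passed the filter through its Control DM3 counts, of which 36.4% held the start of miR-206-3p. These adjusted p-values are thus not taken as support for a loss. All 39 reads in tKO DM3 carried a mismatch, and 38 of them were under 16 nt. With the first 16 bases exact, tKO DM3 held 0 of 8518000 reads, which allows up to 0.352 CPM (3 counts over the group). The Control DM3 mean was at least 119.5-fold above this floor, and at least 84.6-fold without Control DM3 line 2 replicate 2. These bounds cover counting error over the pooled tKO reads only, not the spread between libraries or clones. For single tKO DM3 libraries, 3 counts correspond to 0.660 to 26.6 CPM. With replicate 1 alone the difference by all listed reads was -5.70, with an adjusted p of 0.358. In GM the difference was -2.08 ± 0.68, with an adjusted p of 0.225 in edgeR. The name entered that fit through its Control DM3 counts and was filtered out with only the GM groups, so this test does not inform. On the log2(CPM + 1) scale tKO GM lay below Control GM without overlap (1.08 ± 0.86 against 2.58 ± 0.50, exact permutation p = 0.02857), and with reads without mismatch this difference was -0.05 (exact permutation p = 0.914). By reads with the first 16 bases exact, GM held 11 reads in Control and 5 in tKO, so a loss of miR-1a-3p from myoblasts was not detectable at this depth.

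miR-206-5p was also lower in tKO DM3 (log2(CPM + 1) of 0.45 ± 0.54 against 2.98 ± 1.18 in Control, n = 4 each), without overlap and with an exact permutation p of 0.02857. With reads without mismatch the difference was -2.31 and the exact permutation p was 0.143. None of its reads in tKO had the first 16 bases exact, and in DM3 its Control mean by such reads, 7.65 CPM, was at least 21.7-fold above the floor of 0.352 CPM. Without Control DM3 line 2 replicate 2 that mean was 3.41 CPM, at least 9.68-fold above the floor. Both bounds cover counting error over the pooled tKO reads only.

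Within tKO, miR-206-3p did not pass the test between DM3 and GM (0.25 ± 0.91, adjusted p = 0.891), where edgeR called 159 of 807 names, or 19.7%, and 11.4% higher. miR-1a-3p gave 1.40 ± 0.70 (adjusted p = 0.176), but it entered the fit through its Control counts and its 14 reads in tKO GM and 39 in tKO DM3, these all mismatched, are too few for this test to inform. Without tKO DM3 line 1 replicate 1 the value for miR-206-3p was -0.62 (adjusted p = 0.629). Reads without mismatch turned both differences negative, to -0.10 and -3.02. The test of the difference between genotypes in the change from GM to DM3 gave -4.32 ± 1.147 for miR-206-3p (unadjusted p = 0.00131, adjusted p = 0.694 in edgeR). For miR-1a-3p it gave -2.52 ± 0.95 (adjusted p = 0.937 in edgeR), with the same few tKO reads, so this value does not inform either. No name was called by edgeR or by DESeq2 in this comparison, a background of 0%, with 37 of 807 names at an unadjusted p under 0.05 in edgeR. miR-206-3p had the lowest p of the 807. Without tKO DM3 line 1 replicate 1 its value was -5.16, with an adjusted p of 0.0331 in edgeR. Mir206 is deleted in tKO, so a smaller rise there follows from the design. The tKO side rests on 65 miR-206-3p reads in GM and 44 in DM3. Neither this rank nor this p is therefore taken as support. With the first 16 bases exact, miR-1a-3p gave an adjusted p of 0.0485 in edgeR, and with reads without mismatch 0.0567. In both counts tKO DM3 is at 0 reads, so the fitted size, -8.89 and -8.84, depends on the prior count. By the first count tKO GM held 5 reads, and the name entered the fit through its Control counts. The tKO reads are too few for either test to inform, and nothing is drawn from them.

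The remaining muscle miRNAs, from a list chosen with earlier results of these data known, number 7, of which both miR-133 3p strands and the tested copy of miR-133a-5p were called higher in DM3, in Control and in tKO, beside 15.9% and 11.4% of all names tested. Mir133b lies 3686 bases beyond Mir206 on chromosome 1 (chr1:20682769-20682887), and Mir133a-2 lies 9254 bases beyond Mir1a-1 on chromosome 2 (chr2:180398379-180398482). In Control, miR-133a-3p, a myomiR from the genes next to miR-1a, rose by 6.99 ± 0.73 (log2, SE; adjusted p = 8.74e-06). miR-133b-3p, from the neighbour of Mir206, rose by 6.66 ± 0.73 (adjusted p = 8.74e-06). Both also rose in tKO, by 6.29 and 6.52 (adjusted p = 3.18e-05 for each, edgeR). In DM3 miR-133b-3p stood at 494 ± 169 CPM in Control and at 93.4 ± 75.2 CPM in tKO, a difference of -2.29 ± 0.59 that missed the threshold (adjusted p = 0.0709). For miR-133a-3p the levels were 1586 ± 447 and 345 ± 297 CPM, and the difference of -2.13 ± 0.58 missed it as well (adjusted p = 0.098). For both the ranges of tKO and Control did not overlap in DM3, as for 2.23% of names lower in tKO. Without tKO DM3 line 1 replicate 1, miR-133b-3p was called (-2.05 ± 0.58, adjusted p = 0.0388) and miR-133a-3p was not (-1.96 ± 0.60, adjusted p = 0.0541), with tKO levels of 103 ± 89.1 and 355 ± 363 CPM (SD, n = 3). That fit called 53 of 860 names. The tables list miR-133a-5p under copy names, with a summed DM3 level of 5.16 ± 3.69 CPM for Control and 13.6 ± 9.30 CPM for tKO. In DM3 the tested copy differed between genotypes by 1.02 ± 0.76 (adjusted p = 0.601) and miR-499-5p by 1.30 ± 0.73 (adjusted p = 0.492), both above 0. The tested copy, miR-133a-2-5p, rose by 2.73 in Control (adjusted p = 0.0233) and by 4.45 in tKO (adjusted p = 0.00217). miR-486a-5p and miR-486b-5p, at 82.6 ± 10.6 and 263 ± 69.5 CPM in Control DM3, passed the test in none of the 5 comparisons, nor did miR-499-5p. miR-208b-3p stayed at or below 0.960 CPM and was too scarce to test.

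By pattern across the 8 Control libraries, the names most like miR-206-3p in Pearson's r of log2(CPM + 1), among the 258 tested names that average at least 100 CPM in Control DM3, were miR-675-3p (r = 0.977), miR-133a-3p (r = 0.976), miR-133b-3p (r = 0.972), miR-27b-3p (r = 0.966) and miR-1981-3p (r = 0.952). Their mean levels ran from 125 CPM for miR-675-3p to 55264 CPM for miR-27b-3p in Control DM3. The median r over the 258 names was 0.299, and 27 had an r of at least 0.9. The lowest r among the 217 names averaging at least 100 CPM in Control GM belonged to miR-365-2-5p (-0.973), miR-92a-3p (-0.968) and miR-222-3p (-0.968). These libraries fall into 2 media and share depth differences, so r here mainly separates DM3 from GM, and no p is given.

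Some read forms of miR-206-3p differed between the media without overlap. None of the 7 read measures compared below passed after adjustment (lowest adjusted p = 0.0667, exact permutation test). The leading forms in Control are printed here because the difference lies in their 3′ ends, with added bases that do not follow the hairpin in capitals. They were counted over reads with the first 16 bases exact, after each read was matched to the hairpin again, an analysis added after the data were seen.
22-nt mature form: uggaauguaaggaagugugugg
21-nt form: uggaauguaaggaagugugug
20-nt form: uggaauguaaggaagugugu
21-nt form with A: uggaauguaaggaagugugugA
22-nt form with A: uggaauguaaggaaguguguggA
23-nt form: uggaauguaaggaaguguguggu
The mature form made up 50.6 ± 2.38% of these reads in Control GM and 58.7 ± 2.14% in Control DM3 (SD, n = 4 each). The 22-nt form with A made up 3.899 ± 0.478% in GM and 1.39 ± 0.174% in DM3. The 23-nt form, whose last base follows the hairpin and so cannot be told apart from an added U, made up 3.85 ± 0.389% and 1.89 ± 0.101%. None of these 3 forms overlapped between the media. The exact mature share was higher in DM3 without overlap in 31.8% of the other names compared. A only on reads of the exact mature sequence was lower without overlap in 28.9% of 76 other names. No such share was computed for the 23-nt form. The 21-nt form with A differed by less than the spread: 7.57 ± 0.384% in GM and 7.36 ± 1.16% in DM3.

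By the deposited tail columns, reads with a tail of A only were 17.02, 14.3, 17.04 and 14.7% of miR-206-3p reads in Control GM (line 1 replicates 1 and 2, then line 2) and 11.3, 9.12, 11.7 and 11.5% in Control DM3. The means were 15.8 ± 1.48% and 10.9 ± 1.199%, a difference of -4.86 percentage points with no overlap. The exact permutation p was 0.02857, the smallest this design allows, and 0.0667 after adjustment over the 7 read measures compared. Reads with any tail were 22.3 ± 1.11% in GM and 15.8 ± 1.72% in DM3, and the exact mature sequence 47.7 ± 2.69% and 55.0 ± 2.18%, with the same exact p and the same adjusted p. Within replicate numbers the exact permutation p was 0.0556 for each of these measures, the smallest possible there. Tails of U only, at 2.01 ± 0.584% and 1.89 ± 0.272%, did not differ beyond the spread (exact permutation p = 0.743).

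The start of the molecule and its length moved little. Reads starting at the mature 5′ base were 98.8 ± 0.295% in GM and 98.5 ± 0.132% in DM3 (exact permutation p = 0.143). Mean length was 21.73 ± 0.0412 nt in GM and 21.63 ± 0.0546 nt in DM3 (exact permutation p = 0.0571). Reads with a mismatch were 6.73 ± 0.641% and 6.27 ± 0.268% (exact permutation p = 0.257).

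**Figure D3:**
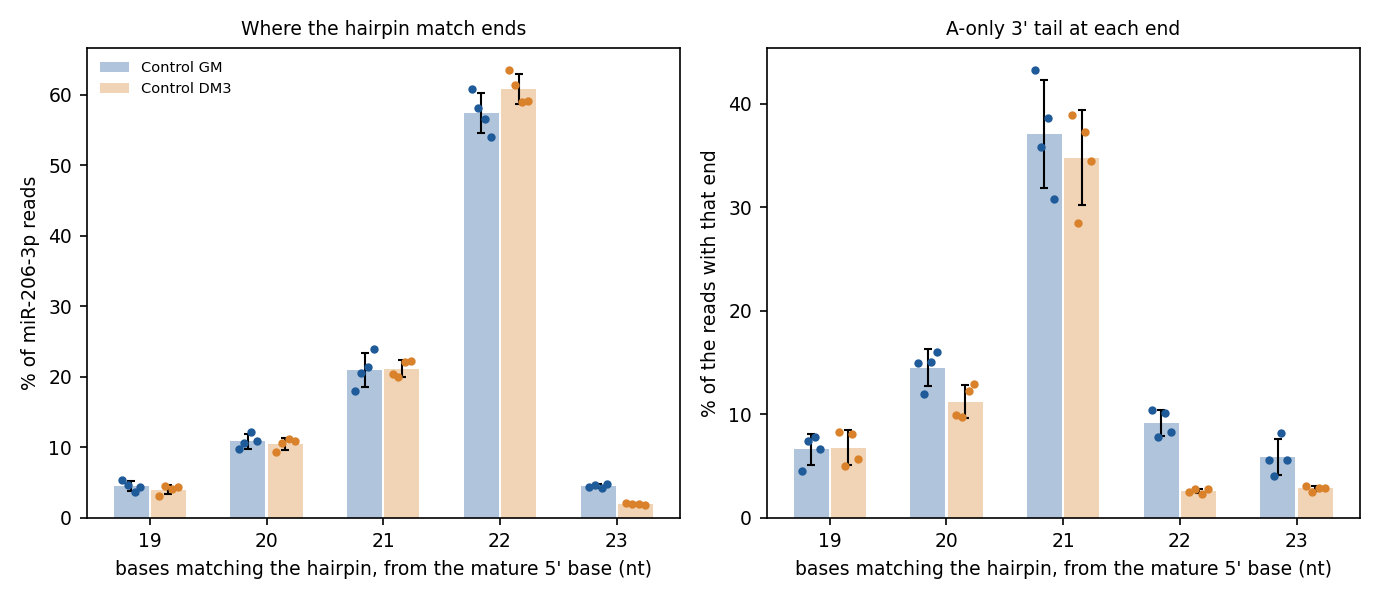
miR-206-3p reads in Control libraries by the number of bases that match the hairpin (horizontal axis, nt). The left panel gives the share of reads with each end and the right panel the share of those reads that carry only added A, in percent, with bars for the mean of 4 libraries, error bars for the SD and points for libraries. At the 22-nt end the GM libraries lie between 7.84% and 10.4% and the DM3 libraries between 2.33% and 2.80%, while at the 21-nt end they overlap.

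The media did not overlap at the 22-nt end. A similar measure, A only on reads of the exact mature sequence, was lower in DM3 without overlap in 22 of 76 other names, or 28.9%. Of the reads that match the hairpin up to base 22, those with added A only were 10.4, 7.84, 10.1 and 8.33% in Control GM and 2.503, 2.78, 2.33 and 2.80% in Control DM3, in the same library order. The lowest GM share rests on 316 of 4032 reads, with an exact binomial 95% interval of 7.03% to 8.71%. The highest DM3 share rests on 2652 of 94841 reads, with an interval of 2.69% to 2.90%. These intervals cover counting error only, since reads carry no molecular identifiers. The means were 9.17 ± 1.28% and 2.60 ± 0.226% (SD, n = 4), with an exact permutation p of 0.02857 for this measure, which was chosen after its values were seen. At the 21-nt end, added A was more frequent and the media overlapped, at 37.1 ± 5.22% in GM and 34.8 ± 4.602% in DM3 (exact permutation p = 0.514). At the 20-nt end it was 14.5 ± 1.76% and 11.2 ± 1.60%, with overlap, and at the 23-nt end 5.86 ± 1.72% and 2.85 ± 0.223%, without overlap.

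Lower A-tailing in DM3 was common among miRNAs. The tail columns were compared for the 88 other names with at least 200 reads in every Control library. Of these, 36 were lower in DM3 without overlap, or 40.9%, and 2 were higher. Their median difference was -1.21 percentage points, with 5% of names at or below -3.59, and 1 of 88 had a difference as low as that of miR-206-3p (-4.86). miR-206-3p started from a high share: 14 of the 88 were at or above it in GM. As a ratio of DM3 to GM its share was 0.692, and 9 of the 88 had a ratio as low, around a median of 0.844. The name with the lower difference was miR-210-3p, chosen after its values were seen, at 56.6% in GM and 49.8% in DM3. For any tail, 52.3% of the 88 were lower in DM3 without overlap, and 17 had a difference as low as that of miR-206-3p. For the share of exact mature sequence, 31.8% were higher without overlap, and 9 had a difference as high. Control DM3 libraries also held more reads under 18 nt over all names (4.76% to 12.8%) than Control GM libraries (1.88% to 2.95%). The part of that difference in the tails was not tested.

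**Figure D4:**
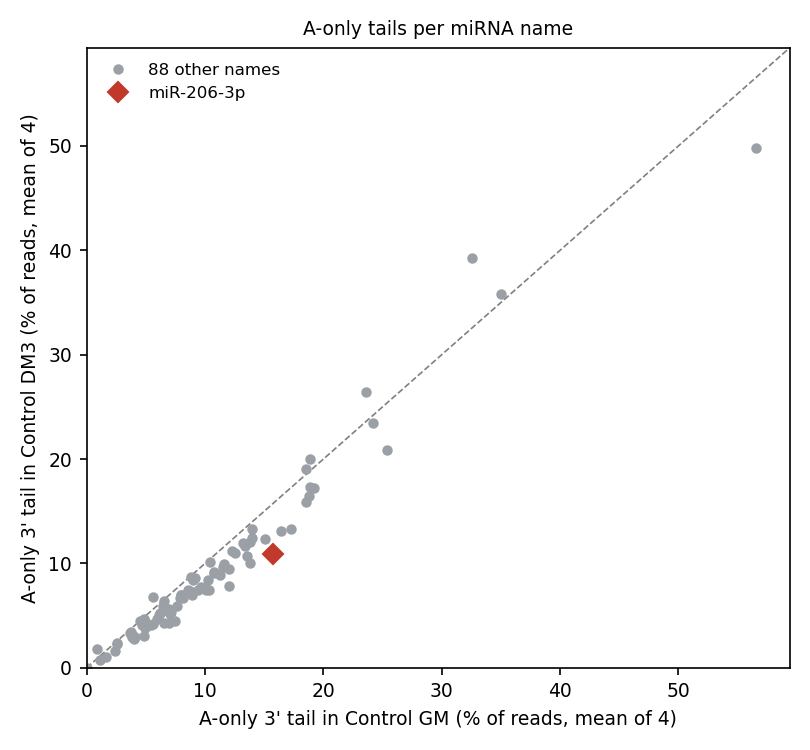
Share of reads with a tail of A only in Control GM (horizontal axis) and Control DM3 (vertical axis), in percent, as means of 4 libraries, for miR-206-3p and 88 other names. The dashed line marks equal shares, and miR-206-3p lies below it at 15.8% and 10.9%.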

How the data were processed

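Small RNA libraries of total RNA were made with the NEBNext kit from size-selected inserts, per the labels' protocols. The submitters' processing notes name cutadapt 1.15, STAR 2.5.4 and build mm10, with no role given. By their names the deposited tables are unitas miRNA tables. Their values are expected counts, per the file headers total reads per sequence, and a few are simple fractions. They also give reads by added 3′ base. The unitas version is not given in the sources used here.

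Names without an exact mature sequence were merged into the mature name without the copy number or arm, or with the letter a added, 236 in all, and counts were summed and rounded. edgeR 4.0.16 (R 4.3.3) fitted all 16 libraries together with TMM scaling and filterByExpr (smallest count 10), and 807 names were tested at an adjusted p of 0.05 by its quasi-likelihood test. DESeq2 1.42.0 was an alternative. Single values were compared by two-sided exact permutation tests in Python 3.11. CPM is reads per 1000000 listed reads, and a pseudocount of 1 was added on the log2 scale.

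The members, the muscle list and the markers were chosen with earlier results of these data known. Besides the members and that list, the names given are the 5 most and 3 least correlated with miR-206-3p, and others are marked as chosen after their values were seen. The labels do not say whether a replicate number marks a shared day, and the reported fit has no replicate block, which was run as an alternative.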

Additional observations from a re-analysis of the deposited data

Results flagged for a closer look

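A library that lay far from the other 3 of its group was found in 5 of 50 sets of 4 libraries, where chance gives about 1 in 20. miR-206-3p in tKO DM3 was highest in line 1 replicate 1, at 70.93 CPM from 8 reads. miR-1a-3p in Control GM was highest in line 2 replicate 1, at 8.958 CPM, where all 17 reads held the start of miR-206-3p. miR-206-5p in tKO GM was highest in line 1 replicate 2, at 1.021 CPM from 2 reads, and miR-1a-1-5p in tKO GM in line 2 replicate 2, at 0.3338 CPM from 2 reads. Tails of A only on miR-206-3p were lowest in Control DM3 line 1 replicate 2, at 9.122%.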

How the results depend on the processing

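Of 301 alternative values, 268 were counted as kept, 5 as losing and 1 as gaining a call, 5 as reversed and 22 counts or levels as moved. Kept means the same direction and side of the threshold, or a small move, except for exact permutation within replicate numbers. Values that missed the exact permutation test are not counted as reversed, among them the seed share of miR-206-3p, which changed sign under 3 alternatives. The loss of miR-206-3p from tKO and its rise in Control kept direction and call under every alternative run in edgeR and DESeq2. Exact permutation within replicate numbers cannot give less than 0.0556, the p it gave for the level of miR-206-3p in these 3 comparisons. Between the media in Control it gave the same p for the exact mature share, any tail, A-only tails and added A at the 22-nt end. All of these passed without the block, so they kept their direction but not their side of the threshold, although counted as kept. Total-count scaling moved the median log2 difference of all names from 0.02 to 0.39 between the media in Control, from 0.01 to 0.24 in tKO, and from 0.11 to 0.24 between genotypes in GM. Where a cause is not given, it was not tested.

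Names called between genotypes in GM numbered 9, and 15 without a filter, 20 by DESeq2's Wald test, 2 with replicate number 1 alone and 18 with reads without mismatch. In DM3 they numbered 7, and 14, 19, 1 and 13 in the same order, 4 with only the groups compared and 70 with replicate number 2 alone. Between the media, 85 names were called in Control with replicate number 1 alone, and in tKO 82 with only the groups compared and 74 with replicate number 2 alone. With only the groups compared, miR-1a-3p was filtered out in GM and in tKO.

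For miR-1a-3p, replicate number 1 alone gave -5.70 between genotypes in DM3 (adjusted p = 0.358), 2.81 between the media in Control (adjusted p = 0.0604) and -0.14 in tKO. Between the media in tKO, it gave -3.02 with reads without mismatch and -3.31 with the first 16 bases exact, where the difference between genotypes in the change was -8.89 (adjusted p = 0.0485 in edgeR), the 1 name called. With 5 such reads in tKO GM and 0 in tKO DM3, that call does not inform. miR-206-3p between the media in tKO gave -0.36 with replicate number 2 alone and -0.10 with reads without mismatch. Reads without mismatch gave -2.31 for miR-206-5p between genotypes in DM3 and 1.94 between the media in Control (exact permutation p = 0.143 for each). A pseudocount of 0.1 moved miR-1a-1-5p to -0.81 and 1.82 between genotypes in GM and DM3, and to -1.34 and 1.29 between the media in Control and tKO. It moved miR-1a-2-5p to -0.71, 0.94, -0.71 and 0.94 in that order.

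Leaving out 1 library at a time, names called between genotypes ranged from 5 to 16 (GM) and 5 to 53 (DM3), the 53 without tKO DM3 line 1 replicate 1. In GM it was 5 without Control GM line 2 replicate 1 or tKO GM line 2 replicate 2, 14 without tKO GM line 1 replicate 1, and 16 without either tKO DM3 line 1 library. miR-206-3p in tKO ranged from -0.62 to 1.20 between the media, and its difference between genotypes in the change from -5.16 to -3.34, with 0 to 1 names called. Between the media in Control, its exact mature share differed by 6.32 to 8.43 percentage points, its 5′ start by -0.435 to -0.207, its mean length by -0.126 to -0.0832 nt and its mismatch share by -0.757 to -0.264. miR-206-5p ranged from -2.97 to -2.03 between genotypes in DM3 and from 2.08 to 3.02 between the media in Control. Leaving out 1 library took the unadjusted exact permutation p past the threshold, to 0.0571, in some cases. These were 4 of 8 for each of these miR-206-5p comparisons and for the miR-1a-3p level in GM. For the exact mature share, which had not passed after adjustment, they were 3 of 8. Depth limits the 5p strands and miR-1a-3p in GM, which rest on few reads.

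Whether replicate numbers mark shared days is not known. Deviations from group means correlated at -0.456 to 0.629 for libraries with the same number (mean 0.1) and at -0.642 to 0.547 for different numbers (mean -0.0933), so the numbers were not taken as pairs. With the replicate block miR-206-3p gave -7.57 and -11.93 between genotypes in GM and DM3, and the names called numbered 10 and 7.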
